A study of Homo sapiens with 4 samples.

Results

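The nuclear pore complex genes encode the proteins, called nucleoporins, that build the channels through the nuclear envelope. They were chosen as a list of 31 gene names, and 30 of these name a row of the deposited table. The remaining gene, NDC1, was found under its older symbol TMEM48, which RefSeq lists as a synonym, so 31 of the 23576 rows of the table are described. The authors tested 30 of these rows. The row of NUP88 is marked as failed.

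The RNA came from SH-SY5Y, a human neuroblastoma cell line of sympathoadrenal origin, as 2 undifferentiated and 2 differentiated libraries. Undifferentiated cells, taken on day 0, were grown with 10% fetal bovine serum. Differentiated cells, taken on day 16, first received 10 µM retinoic acid for 7 days in medium with 5% serum, and then 20 ng/mL BDNF, the brain-derived neurotrophic factor, for 9 serum-free days. The line is a cloned tumour line, and serum, both agents and days in culture differ together between the groups, so they cannot be told apart. The design compares expression before and after neuronal differentiation.

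The pore is a ring-shaped assembly that spans both membranes of the nuclear envelope. A scaffold of Y-shaped complexes forms the outer rings, an inner ring lines the membrane, and membrane proteins anchor the whole. Nucleoporins with phenylalanine-glycine (FG) repeats fill the channel and bind transport receptors, which carry proteins and RNA through it, with direction set by the small GTPase Ran. Dividing vertebrate cells take pores apart in mitosis and rebuild them, and build more in interphase as the nucleus grows, whereas scaffold nucleoporins of non-dividing cells are very long-lived, as shown in rat brain.

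Every one of the 31 genes was listed at a lower level after differentiation in the authors' deposited table, whose unit, FPKM, counts fragments per length of transcript and per fragments mapped. Of the 30 tested, 24 were called lower at a q-value below 0.05 in the authors' deposited table and 0 higher. At an unadjusted p below 0.05, 27 were lower and 0 higher, and the share of all genes at that threshold was not counted. Lower calls were common in these data: they took 31.4% of the 11200 genes tested at a mean of 1 FPKM or more by the authors' deposited table, and higher calls 2.2%. Among the 6840 genes whose mean lay within the range of the pore genes, 4.14 to 79.2 FPKM, lower calls took 39.6% in the authors' deposited table, against 80.0% of the pore genes, and higher calls 1.75%. In bulk RNA such as this, a fall in RNA per cell and a fall in the number of cells that carry it cannot be told apart. The median log2 fold change of the 30 pore genes was -1.08, with quartiles of -1.27 and -0.82, in the authors' deposited table. Over the 11169 genes with values above 0 and a usable statistic the median was -0.62, with quartiles of -0.96 and -0.23, and it was -0.68 within the pore genes' range of levels.

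Since the middle of all genes lay below 0, each gene was also set against the median gene, by subtracting -0.62 from its fold change and dividing by its error, with a two-sided normal p and Benjamini-Hochberg adjustment over the 11169 genes. That error is the standard error that the authors' statistic implies, and 0.05 is the threshold. On that scale 3 pore genes lay below the median gene, NUP210, NUP50 and RANBP2, which is 10.0% of the 30 against 4.56% of all genes and 5.38% within the range of levels. No pore gene lay above the median gene (0 of 30), against 5.64% of all genes. At an unadjusted p below 0.05, 0 lay above and 11 below, and the share of all genes at that threshold was not counted. The fold change itself was below that of the median gene in 27 of 30 pore genes, and above it in SEC13, POM121 and NUPL2. The calls against 0 thus covered most of the pore, and the calls against the median gene few of its genes.

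**Figure D1:**
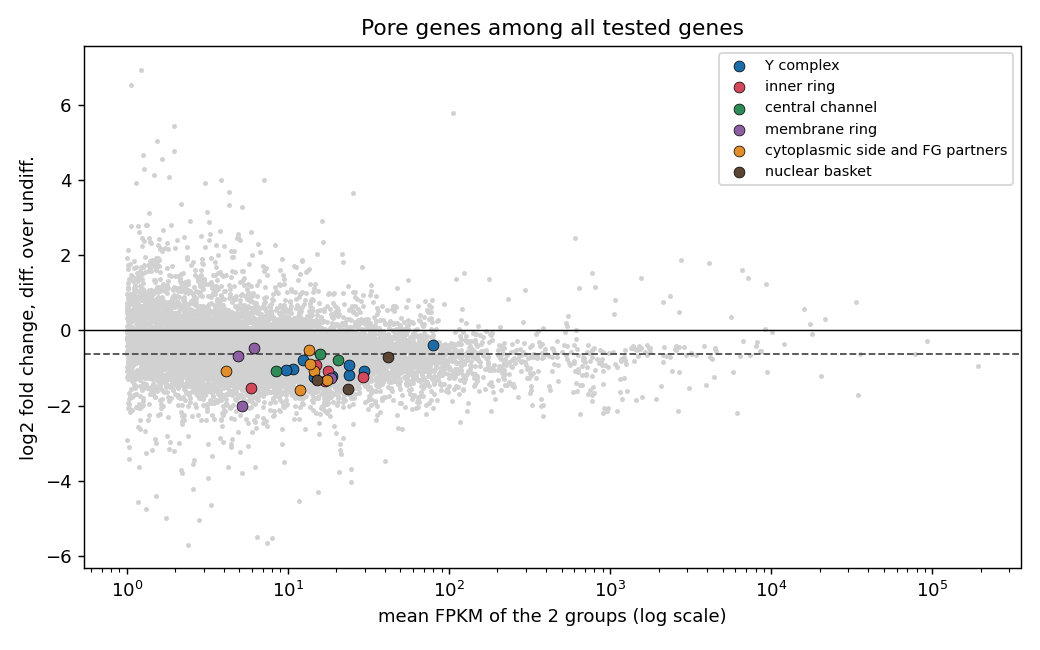
Log2 fold change (differentiated over undifferentiated, vertical axis) against the mean FPKM of the 2 groups (log scale) for 11169 tested genes in grey and 30 pore genes coloured by subcomplex. The solid line is 0 and the dashed line the median of all genes, -0.62. All 30 pore genes lie below 0 as deposited, as do 84.0% of the 11169 genes, and 27 pore genes lie below the dashed line. SEC13, POM121 and NUPL2 take a sign above 0 once that median is removed.

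The Y complex, the scaffold of the outer rings, had 7 of 9 members called lower and 0 higher in the authors' deposited table, with a median log2 fold change of -1.07. Over all genes it called 31.4% lower, and 39.6% within the pore genes' range of levels. NUP107, which gives the complex its usual name, fell from 40.3 to 18.9 FPKM by the authors' deposited table (log2 change -1.09, with 0.255 as the standard error that the authors' statistic implies, q = 0.000269). NUP133, at the tip of the long stem, went from 31.4 to 16.6 FPKM (q = 0.00194) in the authors' deposited table. NUP160, which forms the long arm of the Y, fell from 20.3 to 8.57 FPKM (q = 6.93e-05) in the authors' deposited table. NUP107, NUP133 and NUP160 kept between 42.2% and 52.8% of their undifferentiated level.

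Among the other Y complex genes, NUP85 fell from 13.3 to 6.33 FPKM (q = 0.0114) in the authors' deposited table. The β-propeller gene NUP43 fell from 15.7 to 9.02 FPKM (q = 0.022) in the authors' deposited table. SEH1L, whose protein also serves in a complex that signals amino acid supply, fell from 33.2 to 14.6 FPKM (q = 0.00455) in the authors' deposited table. NUP37, another β-propeller gene, went from 14.5 to 7.07 FPKM by the authors' deposited table. Its log2 change of -1.04 was close to that of NUP107, but its standard error was the widest of the pore genes, 0.445, and in the authors' deposited table it was not called (q = 0.0612). AHCTF1 encodes ELYS, which seeds pore assembly on chromatin after mitosis. It fell from 26.5 to 11.3 FPKM by the authors' deposited table (log2 change -1.23, standard error 0.236, q = 6.29e-06), and its adjusted p against the median gene was 0.0862.

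SEC13 had the highest level and the smallest change of the Y complex genes. Its protein is shared with COPII, the coat of vesicles that leave the endoplasmic reticulum. SEC13 had the highest level of all pore genes in both groups, 89.6 FPKM before and 68.8 FPKM after differentiation by the authors' deposited table. The listed locus of SEC13 is chromosome 3, 10342615 to 10362858 (hg19). The log2 change of SEC13, -0.38, was the smallest in size among the 30 tested, with a standard error of 0.245 and an interval from -0.86 to 0.10, and it was not called (q = 0.23 in the authors' deposited table). The 95% interval of SEC13 did not reach the pore median of -1.08. Only SEC13 and NUP210, at opposite ends, had intervals that left out this median, among 30 intervals read.

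**Figure D2:**
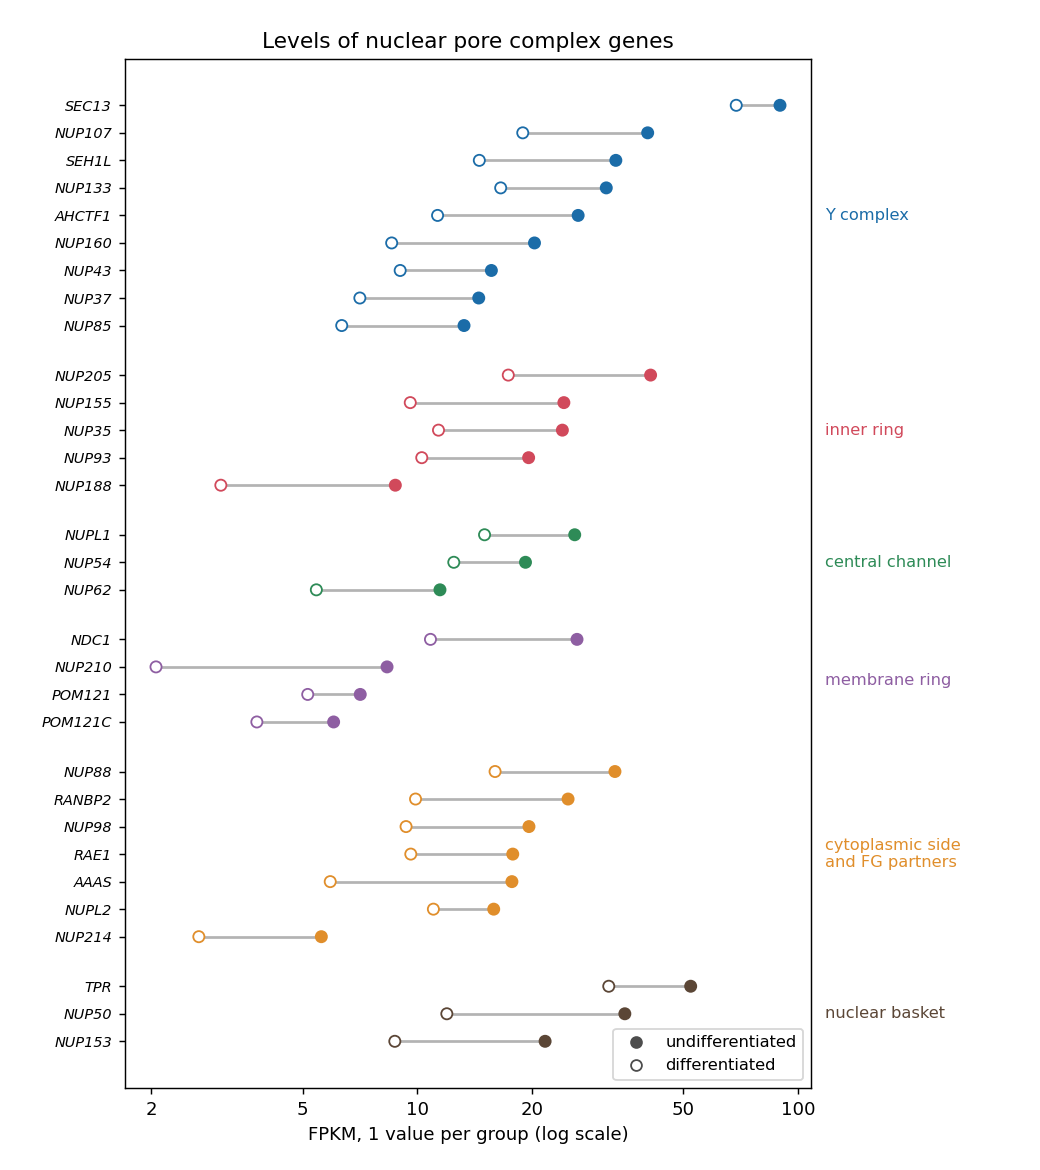
FPKM of each of the 31 pore genes (log scale) in undifferentiated (filled) and differentiated cells (open), grouped by subcomplex, with 1 deposited value per group and no error bar, since values per library are not in the table. Every open point lies to the left of its filled point, and SEC13 and TPR have the highest levels in both groups.

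In the authors' deposited table all 5 inner ring genes were called lower, against 31.4% of all genes, with a median log2 fold change of -1.24. NUP205 fell from 41.0 to 17.3 FPKM by the authors' deposited table (log2 change -1.24, standard error 0.236, q = 4.74e-06). Its structural relative NUP188 was far lower in level and fell from 8.76 to 3.05 FPKM by the authors' deposited table (log2 change -1.52, standard error 0.359, q = 0.000304). NUP155, which contacts the membrane, fell from 24.3 to 9.59 FPKM (q = 3.84e-05) in the authors' deposited table. None of these large scaffold genes lay apart from the median gene, with adjusted p of 0.0752 for NUP205, 0.0862 for NUP155 and 0.0958 for NUP188.

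The linker gene NUP93 fell from 19.6 to 10.3 FPKM (q = 0.00788) in the authors' deposited table. NUP35, which encodes a small membrane-binding nucleoporin, fell from 24.05 to 11.4 FPKM (q = 0.00631) in the authors' deposited table. The inner ring genes together held 15.7% of the summed pore FPKM before and 13.4% after differentiation.

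The central channel trimer of FG nucleoporins had 2 of 3 members called lower in the authors' deposited table, with a median log2 fold change of -0.79. Over all genes it called 31.4% lower. NUP62, which forms the core of the trimer, fell from 11.5 to 5.43 FPKM (q = 0.0122) in the authors' deposited table. NUPL1, now named NUP58, fell from 25.9 to 15.0 FPKM (q = 0.0152) in the authors' deposited table. NUP54 went from 19.2 to 12.5 FPKM by the authors' deposited table and was not called (q = 0.0881). Its log2 change of -0.63 in the authors' deposited table was that of the median gene (adjusted p = 0.999).

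The membrane ring held the strongest fall of the pore genes, that of NUP210, and in POM121 the second smallest change. NUP210 encodes gp210, a glycoprotein whose bulk lies in the lumen of the nuclear envelope and which is known in mouse to be induced when muscle and neural precursors differentiate. In the authors' deposited table NUP210, at chromosome 3, 13357737 to 13461809 (hg19), fell from 8.33 to 2.06 FPKM, which left 24.7% of its level. The log2 fold change of NUP210 in the authors' deposited table was -2.02 with an implied standard error of 0.345 (q = 2.65e-07). By the authors' error, its interval ran from -2.69 to -1.34, wholly below the pore median, and NUP210 lay below the median gene (adjusted p = 0.00147). It went from 28th to last in level among the 31 pore genes.

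NDC1 (TMEM48), a multi-pass protein needed to place new pores, fell from 26.3 to 10.8 FPKM by the authors' deposited table (log2 change -1.28, standard error 0.286, q = 0.000125). POM121, which anchors the scaffold and takes part in pore assembly in interphase, went from 7.09 to 5.16 FPKM (q = 0.337) in the authors' deposited table. Its near-identical copy POM121C went from 6.03 to 3.79 FPKM (q = 0.11) in the authors' deposited table. Neither copy was called, and fragments shared by the pair could be split between them, so the value of each is uncertain. The listed locus of POM121 also overlaps NSUN5P2, at 2.14 FPKM before and 2.18 FPKM after differentiation. That of POM121C overlaps NSUN5P1, at 3.00 and 2.69 FPKM by the authors' deposited table.

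At the cytoplasmic side and among its FG partners, the authors' deposited table called 5 of 6 tested genes lower, with a median log2 fold change of -1.07. Over all genes it called 31.4% lower. RANBP2 encodes the largest nucleoporin of the cytoplasmic filaments, which binds Ran and acts in SUMO transfer. It fell from 24.9 to 9.90 FPKM by the authors' deposited table (log2 change -1.33, standard error 0.231, q = 4.22e-07) and lay below the median gene (adjusted p = 0.027). RANBP2 has near-identical RGPD copies, so its value is uncertain. The 7 RGPD rows summed to 4.71 FPKM before and 4.27 FPKM after differentiation by the authors' deposited table, well under RANBP2 itself. RGPD2 and RGPD5, which passed 1 FPKM, had log2 fold changes of 0.16 and -0.37 in the authors' deposited table (q = 0.836 and 0.654).

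NUP214, an FG nucleoporin that docks the RNA helicase of mRNA export, had the lowest undifferentiated level of the pore genes and fell from 5.60 to 2.67 FPKM (q = 0.00651) in the authors' deposited table. Its partner NUP88 was listed at 33.0 and 16.0 FPKM by the authors' deposited table, 48.4% of the undifferentiated level, with a failed test. The listed locus of NUP88 also holds C1QBP and RPAIN, whose rows failed as well. C1QBP stood at 289 and 134 FPKM and RPAIN at 68.9 and 63.0 FPKM by the authors' deposited table, so fragments at the shared locus are uncertain. The loci of NUP188, NUP62, RAE1 and NUP98 overlap other genes too, of which DOLK, ATF5, RBM38 and PGAP2 were the most abundant, at 8.27, 0.762, 3.77 and 5.50 FPKM before and 5.21, 0.376, 2.15 and 2.88 FPKM after differentiation by the authors' deposited table. DOLK lay below NUP188 before differentiation and above it after, so the value of NUP188 is uncertain, and the other neighbours lay below their pore gene in both groups.

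AAAS, which encodes ALADIN and is mutated in triple A syndrome, fell from 17.7 to 5.91 FPKM by the authors' deposited table (log2 change -1.58, standard error 0.416, q = 0.0013). With this wide error from the authors' statistic, AAAS could not be told from the median gene (adjusted p = 0.137). RAE1, an mRNA export factor that also acts at the mitotic spindle, fell from 17.8 to 9.62 FPKM (q = 0.0443) in the authors' deposited table. NUP98, whose precursor is cut into the FG protein NUP98 and the Y complex protein NUP96, fell from 19.6 to 9.35 FPKM (q = 0.00382) in the authors' deposited table. NUPL2, now named NUP42, went from 15.9 to 11.0 FPKM (q = 0.201) in the authors' deposited table. It was the tested member of the cytoplasmic side and FG partners that was not called.

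The authors' deposited table called all 3 nuclear basket genes lower, against 31.4% of all genes. The basket had the lowest median log2 fold change of the subcomplexes, -1.31, but over only 3 genes. Differences between subcomplexes were not tested, and 28 of the 30 pore gene intervals included the pore median. NUP50, a mobile FG nucleoporin that aids importin release, fell from 35.1 to 11.96 FPKM by the authors' deposited table (log2 change -1.55, standard error 0.279, q = 1.06e-06) and lay below the median gene (adjusted p = 0.013). NUP153, which ties the basket to the nuclear lamina, fell from 21.7 to 8.73 FPKM by the authors' deposited table (q = 1.71e-05; adjusted p against the median gene 0.0768). TPR, the coiled-coil protein of the basket struts, was second in level in both groups. It was called lower, from 52.2 to 31.8 FPKM (log2 -0.71, q = 0.00662) in the authors' deposited table, and took a log2 fold change of 0.07 when both groups were scaled to an equal FPKM sum. The locus listed for TPR, chromosome 1, 185703683 to 186446655 (hg19), also spans C1orf27 and other genes.

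**Figure D3:**
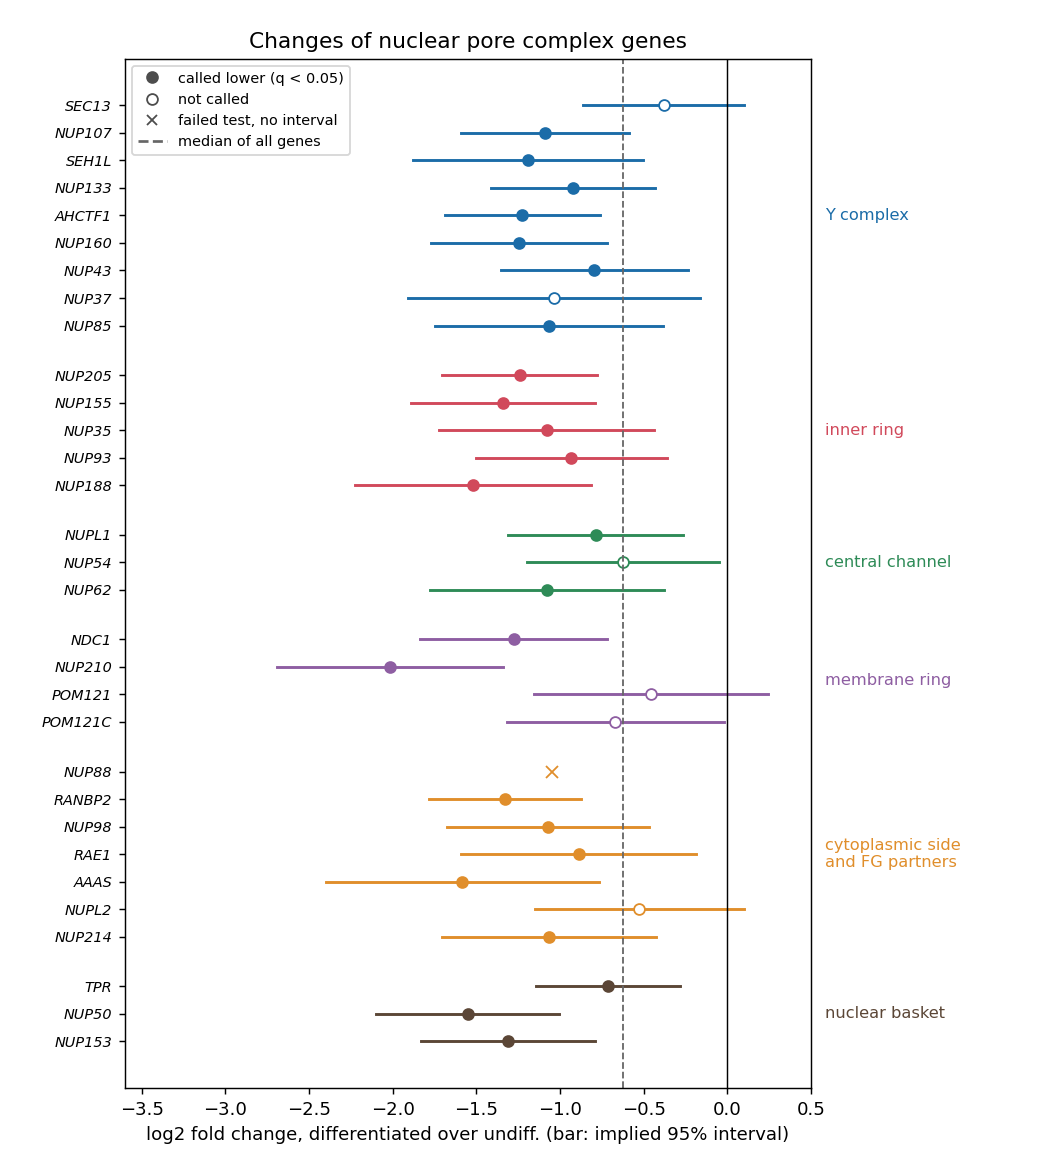
Log2 fold change of each pore gene, differentiated over undifferentiated, with the 95% interval implied by the authors' statistic. Filled points are called lower at q below 0.05, open points are not called, and the cross marks NUP88, whose test failed. The solid line is 0 and the dashed line the median of all genes, -0.62. NUP210 lies lowest at -2.02 and SEC13 highest at -0.38. SEC13, POM121 and NUPL2 lie above the dashed line.

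Shares of the summed pore FPKM do not depend on how a whole library is scaled, and the Y complex held the largest and the membrane ring the smallest of them in both groups. The sum of the 31 pore genes was 750.3 FPKM before and 384.5 FPKM after differentiation by the authors' deposited table, so 51.3% remained. The Y complex held 37.9% of the sum before and 41.9% after differentiation, of which SEC13 alone made 11.9% and 17.9%. The share of the cytoplasmic side and FG partners went from 17.9% to 16.8%, and that of the basket from 14.5% to 13.7%. That of the channel went from 7.55% to 8.56%, and that of the membrane ring from 6.36% to 5.68%. NUP50 went from 4.68% to 3.11% and NUP210 from 1.11% to 0.536%.

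The order of levels was largely kept, with a Spearman correlation of 0.91 between the groups over the 31 genes, and these values share their libraries and transcript models. No neighbours in that order can be said to differ, because the table gives no spread between libraries. Across the 30 tested genes the log2 fold change had a Spearman correlation of 0.02 with mean FPKM, against -0.20 over the 11169 genes. It was -0.23 with the length of the longest GENCODE transcript and -0.39 with its number of exons. The correlations with length and exons were not computed over all genes, so they cannot be called particular to the pore. Lengths ran from 1603 to 11711 bases, and the genes lie on 17 chromosomes.

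Scaling moved the fold changes of the pore genes up. Taking out the median of all genes, taking out the median of each gene's expression bin, scaling to an equal sum with or without small RNAs, and quantile normalization gave pore medians between -0.45 and -0.29. The pore median stayed below 0 under these 5 scalings, which are much alike and not independent checks. The rises were 0.78 and 0.69 for the sums, with a median of 0.60 for quantile normalization. These are smaller in size than the deposited pore median of -1.08, so its sign could hardly change. SEC13, POM121 and NUPL2 took a positive sign under each scaling, NUP54 under 4, POM121C under 2 and TPR under 1. NUP210 lay below 0 with an adjusted p between 0.000431 and 0.00612 under these scalings. NUP50 did so under 4, with an adjusted p of 0.0517 under the equal sum. RANBP2 passed only under the median of all genes and quantile normalization. Small RNA rows made up 72.2% of the summed FPKM before and 70.3% after differentiation, so the equal sum with small RNAs was set mostly by them.

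**Figure D4:**
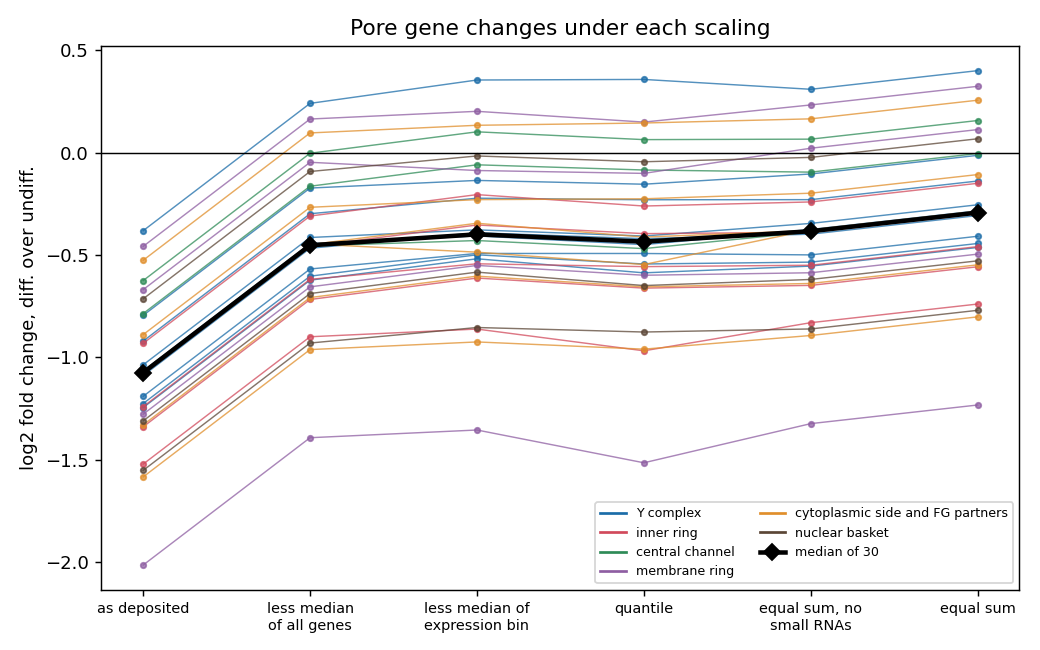
Log2 fold change (vertical axis) of the 30 tested pore genes as deposited and under 5 other scalings, each thin line being 1 gene coloured by subcomplex and the black line their median. The median moves from -1.08 to between -0.45 and -0.29 and keeps its sign. SEC13, POM121 and NUPL2 lie above 0 under all 5, NUP54 under 4, POM121C under 2 and TPR under 1.

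Promoter sequences were examined because the pore genes were lower together, as were 84.0% of the 11169 genes. RefSeq promoters (GRCh38.p14, 250 bases before to 50 after the start) were matched for 29 of 31 genes, taking the first listed where a gene had several. The median GC content was 63.3% in the pore genes and 62.7% over 15843 protein-coding promoters, and the median number of CG dinucleotides was 27 and 22. A search on both strands for 8 short motifs was made with results of these data known. The ETS letters CCGGAAGT were present in 7 of the 29 (24.1%, against 6.19% of all promoters). The near-identical copies POM121 and POM121C are counted separately among these 7. The NRF1 letters CGCATGCG were in 3 (10.3% against 2.88%). The E2F letters TTTNNCGC were in 3 (10.3% against 8.86%), CCAAT in 11 (37.9% against 36.4%), the CHR letters TTTGAA in 6 (20.7% against 12.1%) and AAGATGG, part of the YY1 motif, in 4 (13.8% against 6.4%). The Sp1 letters GGGCGG were in 12 (41.4% against 58.5%) and TATAAA was in 0 (against 9.63%).

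The 7 promoters with the ETS letters are shown as 40 bases around the match, with the match in capitals, which no other searched motif overlapped. Each is read on the strand of its gene, so ACTTCCGG is the same motif on the other strand.
SEC13: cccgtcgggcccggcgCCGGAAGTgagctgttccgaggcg
NUP54: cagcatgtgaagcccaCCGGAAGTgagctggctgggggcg
POM121: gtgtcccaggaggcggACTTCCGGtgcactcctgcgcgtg
POM121C: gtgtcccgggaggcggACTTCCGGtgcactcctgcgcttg
NUPL1: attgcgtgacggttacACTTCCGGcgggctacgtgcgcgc
NUP35: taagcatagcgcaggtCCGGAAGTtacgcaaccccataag
NUP160: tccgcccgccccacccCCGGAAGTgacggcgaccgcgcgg
These windows lie at chr3:10321102-10321141 (minus strand), chr4:76148545-76148584 (minus), chr7:72879257-72879296 (plus), chr7:75486346-75486385 (minus), chr13:25301542-25301581 (plus), chr2:183124330-183124369 (plus) and chr11:47848361-47848400 (minus), in that order, in GRCh38.p14.

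The POM121 and POM121C windows differ at 2 of 40 bases. Their listed promoters, set side by side from the first base with no alignment, differ at 162 of 300. The match begins at -84 from the start in POM121 and at -70 in POM121C. The listed promoters are thus offset, and the 162 does not measure how unlike they are. Of the 7 genes with these letters, NUPL1, NUP35 and NUP160 were called lower and 4 were not called in the authors' deposited table. The 7 log2 fold changes ran from -1.25 to -0.38, with a median of -0.67. The copies POM121 and POM121C, whose values are uncertain, are among the 4, and the median is the value of POM121C. Of the 21 tested genes whose promoter lacked these letters, the authors' deposited table called 19 lower, with a median of -1.09. Over all genes it called 31.4% lower, and 39.6% within the pore genes' range of levels. Calls were not counted over all promoters with or without these letters. This split was noticed after the values were seen, was not tested, and says nothing of which factors bind there.

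The promoters of NUP210 and SEC13 are printed whole because these genes have the largest and the smallest change. Capitals mark GGGCGG or its reverse complement CCGCCC, and in SEC13 also CCGGAAGT; none of these overlap.
NUP210: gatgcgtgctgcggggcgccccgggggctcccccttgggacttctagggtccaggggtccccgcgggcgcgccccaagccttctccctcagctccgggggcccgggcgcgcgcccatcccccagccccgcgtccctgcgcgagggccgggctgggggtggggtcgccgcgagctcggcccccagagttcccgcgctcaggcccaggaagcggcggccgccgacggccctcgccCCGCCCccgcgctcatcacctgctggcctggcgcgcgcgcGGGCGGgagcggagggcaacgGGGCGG
SEC13: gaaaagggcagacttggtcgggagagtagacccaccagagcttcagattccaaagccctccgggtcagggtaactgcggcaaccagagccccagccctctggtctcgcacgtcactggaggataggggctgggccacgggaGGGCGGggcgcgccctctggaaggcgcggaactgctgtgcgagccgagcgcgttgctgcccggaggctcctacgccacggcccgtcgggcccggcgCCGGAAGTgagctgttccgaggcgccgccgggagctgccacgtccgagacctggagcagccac
They lie at chr3:13420273-13420572 and chr3:10321063-10321362, both on the minus strand of GRCh38.p14. The NUP210 promoter was the richest in GC of the 29, at 81.3%, with 3 GGGCGG matches, and the SEC13 promoter had 69.7%.

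The authors' deposited table called most tested genes lower in 4 lists of genes that work with the pore. Over all genes it called 31.4% lower and 2.2% higher, while 4.56% lay below the median gene and 5.64% above. The share called lower was 61.9% in the highest of the 10 expression bins, with means from 43.7 FPKM. Of 17 importin genes, whose proteins carry cargo into the nucleus, 12 were called lower and 0 higher in the authors' deposited table, and the median log2 fold change was -0.87. IPO4 (-1.62), IPO5 (-1.22), IPO8 (-1.18) and KPNB1 (-1.17), the partner of all importin α proteins, fell in the authors' deposited table, and IPO4 also lay below the median gene (adjusted p = 0.0473). KPNA5, an importin α gene singled out after its value was seen, went from 16.3 to 18.8 FPKM by the authors' deposited table (q = 0.589) and lay above the median gene (adjusted p = 0.0271). The authors' deposited table called all 7 exportin genes lower, with a median of -1.08. XPO4 (-1.61), CSE1L (-1.22), which returns importin α to the cytoplasm, XPO5 (-1.14) and XPO6 (-1.08) had the largest falls there, in the authors' deposited table, and XPO4 lay below the median gene (adjusted p = 0.0115).

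The Ran cycle had 5 of 6 genes called lower in the authors' deposited table, a median of -1.27 and 3 genes below the median gene. Over all genes the shares were 31.4% called lower and 4.56% below the median gene. RCC1, the exchange factor that loads Ran with GTP on chromatin, fell from 26.1 to 6.20 FPKM by the authors' deposited table (log2 change -2.07, standard error 0.354, adjusted p against the median gene 0.00123). RANBP1 went from 634 to 212 FPKM by the authors' deposited table (log2 -1.58, adjusted p against the median gene 0.000421). RAN itself fell from 285 to 115 FPKM by the authors' deposited table (log2 -1.31, adjusted p against the median gene 0.041), and RANGAP1, which triggers GTP hydrolysis, from 15.4 to 6.59 FPKM (q = 0.000548). RCC1 and NUP210 thus had the largest falls of their lists.

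The authors' deposited table called 14 of 17 tested mRNA export genes with at least 1 FPKM lower, and 0 higher. Over all genes it called 31.4% lower. The median of the list was -1.01, and 3 of its genes lay below the median gene, against 4.56% of all genes. These were THOC1 (-1.73), DDX39A (-1.68) and ALYREF (-1.56), with adjusted p of 0.00357, 0.0142 and 0.00371, and in the authors' deposited table NXT2 (-1.43) also fell. DDX39B was listed near 0 on an alternative haplotype contig of chromosome 6 and is not counted. The paralog NUP62CL went from 2.78 to 1.07 FPKM (q = 0.242), and NUP210L stood at 0.013 and 0.0462 FPKM by the authors' deposited table.

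**Figure D5:**
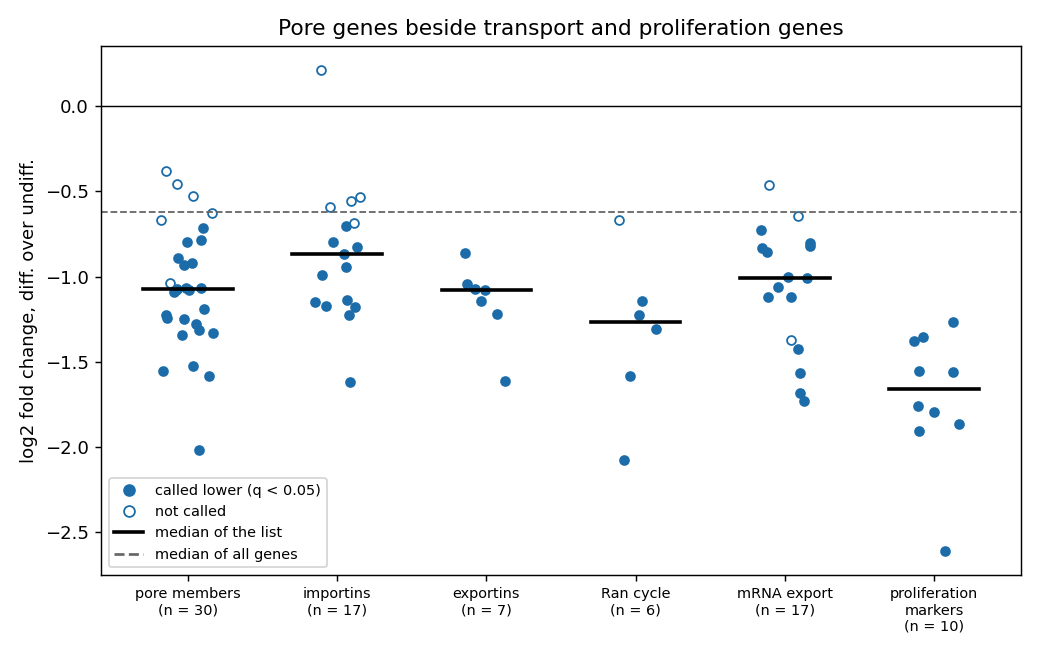
Log2 fold change (vertical axis, as deposited) of the 30 tested pore genes and of the genes of 5 other lists with a mean of at least 1 FPKM. Filled points are called lower at q below 0.05, black bars are list medians and the dashed line is the median of all genes, -0.62. List medians run from -0.87 for importins to -1.66 for proliferation markers, and the pore median is -1.08. Among the pore genes SEC13, POM121, NUPL2, NUP54, POM121C and TPR take a positive sign under at least 1 other scaling.

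Other features of the samples moved with the groups. The authors' deposited table called all 10 proliferation markers lower, among them MKI67 and RRM2, with a median log2 fold change of -1.66 and 7 below the median gene. Over all genes 31.4% were called lower and 4.56% lay below the median gene. The summed level of the proliferation markers went from 684 to 226 FPKM by the authors' deposited table, and the part of this in the pore values was not tested. Of 12 sympathoadrenal markers, 11 passed 1 FPKM, of which the authors' deposited table called 7 lower and 0 higher. Of these 11, 5 lay below the median gene and 1 above, against 4.56% and 5.64% of all genes. The list summed to 1403 and 876 FPKM. ISL1 stood at 45.2 and 35.5 FPKM by the authors' deposited table and was not called (q = 0.342), while TH was listed at 0 in undifferentiated cells. Of 6 glial markers 5 were under 1 FPKM in both groups, with SOX10 and GFAP at 0 in undifferentiated cells, and the list summed to 4.81 and 3.73 FPKM by the authors' deposited table. The 7 fibroblast markers summed to 42.8 and 33.4 FPKM, and 3 of the 5 tested were called lower and 0 higher, by the authors' deposited table. COL1A2 was at 0 in differentiated cells, COL1A1 was under 1 FPKM in both groups, and LUM, alone in this list, lay above the median gene, at 12.5 and 17.95 FPKM by the authors' deposited table (adjusted p = 0.0029). The part of these genes in the pore values was not tested.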

How the data were processed

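RNA was sequenced from 4 libraries, 2 per group, after removal of ribosomal RNA, per the labels' protocols. The submitters' processing notes name TopHat2 2.0.8, Cufflinks 2.0.2 and the build hg19. Per the file headers, the authors deposited an FPKM for each group, their log2 fold change and its statistic, p-value and q-value, in 1 row for each gene. The annotation and the way libraries were combined and scaled were not given in the sources used here. Depth is unknown. The labels do not say that replicates came from separate cultures, so q-values may measure technical spread.

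Of 23576 rows the authors tested 12810. The 28 rows named by a date were left out. The implied standard error is the size of the log2 fold change over that of the statistic, and intervals are 95% normal intervals. A two-sided normal p of the statistic equalled the p-value deposited in 12750 of 12750 rows with values above 0 (tolerance 0.001), which is why a normal p was used. The test against the median gene inherits this variance model. Its median is taken from all genes, although the median of 10 expression bins ran from -0.32 to -0.74. Listed starts were raised by 1. At 8 pore genes the locus overlaps other rows. Without strand given, overlapping genes cannot be told apart.

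All members are named. From each list of transport genes up to 4 called genes with the largest change are named, or the 2 most abundant where none was called; 1 list and some markers are not reported here. Members, lists and motifs were chosen with earlier results of these data known. Python 3.11.15, numpy 2.4.6, pandas 2.3.3, scipy 1.17.1 and matplotlib 3.10.9 were used, with transcript lengths from GENCODE release 29 and promoters from RefSeq. Alternatives covered the threshold, the filter, the pseudocount, the scaling and the members kept.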

Additional observations from a re-analysis of the deposited data

How the results depend on the processing

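The count of pore genes called lower in the authors' deposited table, 24, lay between 19 and 24 under a q below 0.01, other filters on low values, and without genes that share a locus, have near-identical copies or were matched by an older symbol (chosen after seeing the data). The count below the median gene, 3, was 1 with the equal sum and 1 at an adjusted p below 0.01, and 2 or 3 under the other alternatives. The pore median of -1.08 became -0.45 less the median of all genes, -0.40 less that of the expression bin, -0.29 with the equal sum, -0.38 with the equal sum without small RNAs and -0.44 with quantile normalization. These scalings raise all folds, by 0.78 and 0.69 for the sums. Single genes that turned positive, in that order of scalings, were SEC13 (0.24, 0.35, 0.40, 0.31, 0.36), POM121 (0.16, 0.20, 0.32, 0.23, 0.15) and NUPL2 (0.10, 0.13, 0.26, 0.17, 0.14). From the second scaling on NUP54 gave 0.10, 0.16, 0.066 and 0.063. POM121C gave 0.11 and 0.022 with the 2 equal sums and TPR 0.068 with the first. No called gene other than TPR turned, and under each scaling between 1 and 3 of the 24 called genes were still called. No paired analysis was possible because the table holds group values, and leaving out replicates was not run for the same reason.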
